A study of Mus musculus with 11 samples.

Results

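The RNA-seq libraries from wounded skin were compared with those from unwounded skin to ask which part of the keratinocyte wound response was common to WT mice and to mice labelled GRHL3 KO. All samples with a table of gene counts were taken, which is 7 of the 11 samples of the series, 4 of them wounded and 3 unwounded; the other 4 are lists of open chromatin regions. The mice were 8-week-old males and females on the C57BL/6 background, which the study's methods give as C57BL/6J. The knockout (*Grhl3*-cKO) carried *Krt14*-Cre and 2 floxed *Grhl3* alleles, which the study describes as a deletion specific to skin. The WT controls were littermates described as *Krt14*-Cre-WT. Full-thickness wounds were made in back skin with a 4 mm punch. The wounded samples came from the 1 mm of skin around the wound at day 3, and the unwounded samples from back skin away from it. Cells positive for the integrin CD49f were sorted after removal of cells carrying the blood and endothelial markers CD45, CD31 and TER119.

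After an injury, keratinocytes at the wound margin loosen their contacts with the basement membrane, switch on stress keratins and matrix proteases, and move as a sheet over the wound bed while cells behind them divide. Cells of the hair follicle can join this sheet. GRHL3 is a Grainyhead-like transcription factor of the epidermis, known for its part in barrier formation and in closure of epithelia.

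There were 2 libraries each for WT unwounded, WT wounded and cKO-labelled wounded keratinocytes, and 1 for cKO-labelled unwounded keratinocytes. They are called by group and replicate number here, and the term "cKO-labelled" is used because *Grhl3* counts do not separate the genotypes. *Grhl3*, on chromosome 4, was at 124 and 82.8 CPM (counts scaled to a common library size) in WT unwounded, 111 and 92.1 CPM in WT wounded, 79.5 CPM in cKO-labelled unwounded and 123 and 105 CPM in cKO-labelled wounded libraries. The study checked the deletion in its mice by PCR of the floxed region and by staining. The counts used here cover the whole gene and not the floxed exons alone, so for these libraries the genotype is taken from the label. Counts on genes totalled from 13497283 to 16807451 per library. The labels give the libraries as separate samples without naming the animals, so the p-values measure the spread between these samples.

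One library stood apart before any wound comparison. The cKO-labelled unwounded library had 14854 counts of *Xist*, the RNA of the inactive X chromosome, and 0 counts over the Y genes *Ddx3y*, *Uty*, *Kdm5d* and *Eif2s3y*, whereas in each of the other 6 *Xist* lay between 3 and 32 and the Y genes summed to between 2580 and 3589. By these counts this library is female and the other 6 are male. For the cKO-labelled unwounded group, sex can thus not be told apart from genotype or treatment. The library's title and its file give different replicate numbers. On the first principal component of log2 CPM, which held 26.8% of the variance, it lay at -62.13 and the other libraries between -22.77 and 45.13. Genes on chromosomes X and Y were left out throughout, which does not take out any effect of sex on other genes. Because this library is the whole of its group, results are given with and without it.

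Of 24421 genes listed, 23305 were left without X and Y and 12286 had enough counts to be tested. A single model with terms for genotype and for wounding gave each gene 1 log2 fold change for wounding, the base-2 logarithm of wounded over unwounded (edgeR's quasi-likelihood test, two-sided), and the adjusted p is the Benjamini-Hochberg value over all genes tested. An adjusted p under 0.05 was reached by 5 genes. *Gjb2*, *Pmepa1* and *Flt1* rose (3 of 12286, or 0.0244%) and *Col8a2* and *Tmtc1* fell (2 of 12286, or 0.0163%). An unadjusted P under 0.05 was found for 511 genes that were higher (4.16%) and 460 that were lower (3.74%) in wounded samples, together 971 where 5% of the genes tested is 614.3. Without the cKO-labelled unwounded library 0 genes reached the adjusted threshold by edgeR and 752 the unadjusted one, of which 405 were among the 971. The number lower was then 271. By DESeq2 on all 7 libraries 85 genes were higher and 50 lower at an adjusted p under 0.05. The older quasi-likelihood method of edgeR gave 0 genes, as did adding a term for replicate number. By limma-voom there were 2, and also 2 by edgeR without the genotype term.

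*Col8a2* (chr4:126286793-126314330, GRCm38) encodes a chain of type VIII collagen, a matrix protein of basement membranes. It had 443 and 569 counts in WT unwounded and 485 in the cKO-labelled unwounded library, against 195 and 117 in WT wounded and 193 and 119 in cKO-labelled wounded libraries. Every wounded library was below every unwounded one. It went from 33.4 ± 4.27 CPM (SD, n = 3) to 10.4 ± 2.74 CPM (SD, n = 4), a log2 fold change of -1.71 ± 0.23 (estimate and its standard error; edgeR adjusted p = 0.0346). *Tmtc1* (chr6:148232430-148444389), which encodes an enzyme of the endoplasmic reticulum that adds mannose to cadherins, had 411, 448 and 423 counts without a wound and 161, 165, 139 and 125 with one. These groups also did not overlap, and the log2 fold change was -1.55 ± 0.22 (estimate and its standard error; edgeR adjusted p = 0.0346). Fitted within each genotype, the changes were -1.67 in WT and -1.77 in cKO-labelled samples for *Col8a2*, and -1.37 and -1.82 for *Tmtc1*. Leaving out the cKO-labelled unwounded library, they were -1.66 for *Col8a2* and -1.36 for *Tmtc1*, with adjusted p values of 0.230 and 0.266.

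*Gjb2* (chr14:57098600-57104702, GRCm38) encodes a gap junction connexin of activated epidermis. WT unwounded libraries had 456 and 1427 counts and WT wounded ones 3355 and 10890, while the cKO-labelled unwounded library had 112 and the wounded ones 2629 and 1042. Within each genotype wounded libraries were above unwounded ones, but cKO-labelled wounded 2 (73.7 CPM) was below WT unwounded 2 (84.5 CPM), so the groups overlapped across genotypes. Fitted apart, the values were 3.01 in WT and 3.89 in cKO-labelled samples. The log2 fold change was 3.22 ± 0.48 (estimate and its standard error; edgeR adjusted p = 0.0423). It was 2.55 without WT wounded 2, 3.94 without WT unwounded 2 and 3.01 without the cKO-labelled unwounded library, the last with an adjusted p of 0.230.

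*Pmepa1* (chr2:173224458-173276533, GRCm38) encodes a membrane protein that is induced by TGF-beta and dampens its signalling. It was at 42.4, 46.7 and 53.6 CPM without a wound and 100, 133, 93.1 and 85.7 CPM with one, with no overlap. The log2 fold change was 1.13 ± 0.17 (estimate and its standard error; edgeR adjusted p = 0.0423), with 1.39 in WT and 0.74 in cKO-labelled samples. *Flt1* (chr5:147561604-147726011), a receptor for vascular endothelial growth factors, had 5, 4 and 0 counts without a wound and 91, 105, 35 and 14 with one. All 4 wounded libraries were higher at this low level, with a log2 fold change of 4.58 ± 0.75 (estimate and its standard error; edgeR adjusted p = 0.0458). With the cKO-labelled unwounded library left out, the values were 1.39 for *Pmepa1* and 4.44 for *Flt1*, with adjusted p values of 0.0761 and 0.222.

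The calls depended on most libraries. No gene reached an adjusted p under 0.05 without WT unwounded 1, WT wounded 2, cKO-labelled unwounded, cKO-labelled wounded 1 or cKO-labelled wounded 2 (0 genes each by edgeR). Without WT unwounded 2, 19 genes were higher and 24 lower, among them 4 of the 5 called genes, and without WT wounded 1, 60 and 67, among them all 5. An exact permutation test of 3 libraries against 4 has 35 splits and cannot give a two-sided p below 0.0571.

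**Figure D1:**
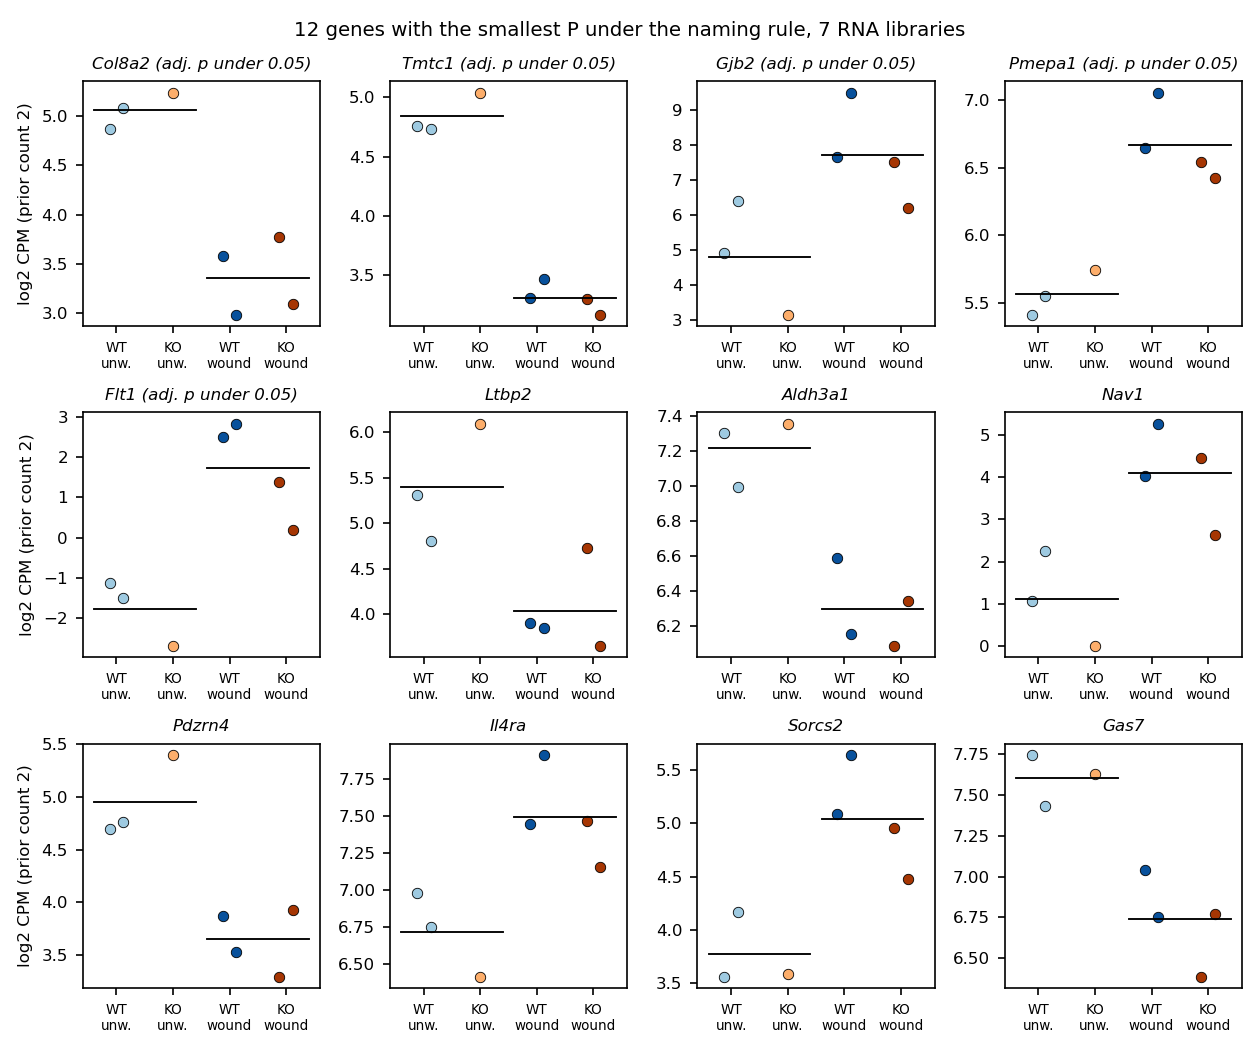
log2 CPM (prior count of 2) of 12 named genes in each of the 7 libraries, with dots colored by group and lines at the mean of the unwounded and of the wounded libraries. For *Col8a2*, *Tmtc1*, *Pmepa1* and *Flt1* every wounded library lies on the same side of every unwounded library.

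Between an adjusted p of 0.05 and 0.1 there were further genes, giving 40 in all by edgeR, 21 higher and 19 lower. Those described next were picked for groups that do not overlap, which 383 genes above (3.12%) and 432 below (3.52%) showed among all tested. They were also picked for the same sign in both genotypes, so a shared sign is fixed by the choice. *Nav1*, a microtubule-binding protein of migrating cells, had 30, 79 and 11 counts in unwounded and 267, 575, 309 and 86 counts in wounded libraries, a log2 fold change of 3.16 (standard error 0.54). *Il24*, a secreted cytokine, had 59, 41 and 6 counts in unwounded and 156, 229, 158 and 151 in wounded libraries, with a log2 fold change of 2.39. The wounded libraries were close together for *Il24*, and the lowest value was that of the cKO-labelled unwounded library.

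*Fbln2*, a fibulin of the extracellular matrix, had a log2 fold change of 2.07, the intermediate filament gene *Vim* one of 1.77 and the sorting receptor gene *Sorcs2* one of 1.38. *Il4ra*, a cytokine receptor chain, had a smaller value of 0.86. Fitted apart, the value in cKO-labelled samples minus that in WT was 1.02 for *Nav1*, 2.55 for *Il24*, 0.17 for *Fbln2*, 1.67 for *Vim*, -0.34 for *Sorcs2* and 0.08 for *Il4ra*. The WT values were 1.98 for *Il24* and 1.33 for *Vim*, and the interaction P for *Vim* was 0.0432 unadjusted. None of these genes passed the adjusted threshold.

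The lower genes described at this level had log2 fold changes between -1.48 and -0.71. *Ltbp2*, a matrix protein of the latent TGF-beta binding family, was at 39.5, 27.7 and 68.2 CPM in unwounded and 14.8, 14.3, 26.3 and 12.4 CPM in wounded libraries (log2 fold change -1.48, standard error 0.25). Its cKO-labelled wounded 1 value lay just under WT unwounded 2. *Serpinb11*, a serine protease inhibitor family gene, had a log2 fold change of -1.39, *Pdzrn4* one of -1.34, *Thsd1* one of -1.23 and *Shisa2*, a modulator of growth factor receptors, one of -1.14. *Aldh3a1*, an aldehyde dehydrogenase of epithelia, was at -0.91, *Gas7* at -0.83, the pyrophosphate transporter gene *Ank* at -0.81, *Phyhip* at -0.78 and *Camsap3*, which binds microtubule ends, at -0.71. *Lhx2* and *Cd34* belong to the hair follicle bulge and are described with that group. Without the cKO-labelled unwounded library these values lay between -1.28 for *Serpinb11* and -0.64 for *Camsap3*, with -1.20 for *Ltbp2*. Fitted apart, they were between -1.29 and -0.65 in WT and between -1.81 and -0.78 in cKO-labelled samples. The shared sign was a condition for picking these genes and is no evidence of a common response.

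Gene groups were described by how many members had an unadjusted P under 0.05 and by the median log2 fold change of the members tested, beside a median of 0.00 over all genes tested. Over all genes tested, 4.16% were higher and 3.74% lower at that P. Without overlap between groups, 3.12% lay above and 3.52% below. Genes can reach the counts needed for testing in the wounded libraries alone, as *Col5a3* and *Oasl2* did. Counts and medians over tested members are therefore in part set by this filter. The lists were also chosen with earlier results of these data known, so they are not independent evidence. Of 15 stress keratins and integrins of migrating keratinocytes, 5 were higher and 0 lower, with a median of 0.29. *Krt16*, a stress keratin, was at 1813, 1999 and 1402 CPM in unwounded and 2480, 3429, 3071 and 2172 CPM in wounded libraries. The groups did not overlap and the log2 fold change was 0.74 ± 0.17 (with an unadjusted P of 5.6e-04). *Krt6a* (1.65) and *Krt6b* (3.10) had larger values with overlapping groups, since WT unwounded 2 reached 1633 CPM of *Krt6a* and 265 CPM of *Krt6b*. The value of *Krt6b* was 2.13 in WT and 6.83 in cKO-labelled samples, where the unwounded library had 56 counts, and 2.13 without that library. *Itga5*, the fibronectin receptor integrin, had a log2 fold change of 1.05, and *Itga2*, a collagen receptor integrin, one of 0.77. *Krt17* was at 0.25 with an unadjusted P of 0.112. Leaving out the cKO-labelled unwounded library, the group had 7 higher, 0 lower and a median of 0.55, and without WT wounded 1 the number lower was 1.

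Among 27 tested genes of matrix metalloproteinases, the plasminogen system and their inhibitors, 7 were higher and 2 lower (median 0.29, and 0.12 without WT wounded 2). *Mmp9*, a gelatinase, had 0 CPM in both WT unwounded libraries and 2.47 CPM in the cKO-labelled unwounded one, against 8.99, 39.8, 11 and 3.32 CPM in wounded libraries (log2 fold change 4.62, unadjusted P of 4.7e-04). The groups did not overlap, though cKO-labelled wounded 2 was close to the cKO-labelled unwounded library, without which all unwounded counts are 0. *Adam12*, a membrane metalloproteinase, was at 0, 0.296 and 0 CPM in unwounded and 2.92, 6.64, 0.839 and 0.495 CPM in wounded libraries. The urokinase gene *Plau* (0.75), its receptor gene *Plaur* (1.19), *Adam8* (0.52), *Mmp13* (1.26) and *Mmp10* (2.21) were the other higher members. The inhibitor gene *Timp2* (-0.76) and *Mmp2* (-0.70) were lower. Lower genes numbered 0 without the cKO-labelled unwounded library and 1 without WT unwounded 1, WT wounded 2 or cKO-labelled wounded 1. *Serpinb2*, the most abundant member, was at -0.07.

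Of 25 tested basement membrane and provisional matrix genes, 11 were higher and 2 lower (median 0.28, and 0.57 without the cKO-labelled unwounded library, where 9 were higher and 1 lower). Without WT wounded 1 the number lower was 5. The laminin chain genes *Lama3* (0.88), *Lamb1* (0.69) and *Lamc1* (0.28) were higher. So were the provisional matrix genes *Tnc* (1.12), which encodes tenascin, and *Fn1* (0.85), which encodes fibronectin. *Lgals1* (1.33), *Hspg2* (0.36) and *Col7a1* (0.38) were higher as well, and *Ecm1* (-0.78) was the other lower gene. Its value was -0.15 in WT and -1.64 in cKO-labelled samples, where the unwounded library was the highest of all at 117 CPM. *Fndc1* had 1, 2 and 6 counts in unwounded and 225, 30, 26 and 51 in wounded libraries, with WT wounded 1 far above the rest. *Col5a3*, a fibrillar collagen chain, had 0 counts in all unwounded libraries and was at 6.62, 6.57, 2.87 and 0 CPM in wounded ones, at least 62.4-fold higher on a floor of 3 counts over the group. *Col17a1*, the hemidesmosomal collagen and most abundant member, was at -0.08.

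For actin assembly, bundling and contractility, 14 of 43 tested genes were higher and 0 lower, and 39 had a log2 fold change above 0 (median 0.16, and 0.11 without cKO-labelled wounded 1). Without WT unwounded 2, 12 were higher and 1 lower. The 14 include the smooth muscle genes *Acta2* (3.27, described with the pericyte list), *Tagln* (2.57) and *Myl9* (1.86). They also include *Nav1*, which binds microtubules. *Fscn1* and *Pdpn*, also among them, were picked by the study from these very samples, so the count is not independent evidence. The value of *Tagln* was 3.26 in WT and 0.10 in cKO-labelled samples, with 198 counts in WT wounded 1 and 9 to 19 in each other library. *Cald1*, which stabilizes actin filaments, was at 36.5, 53.6 and 31.9 CPM in unwounded, 112 and 164 CPM in WT wounded and 50.5 and 36.3 CPM in cKO-labelled wounded libraries. Both cKO-labelled wounded libraries were below WT unwounded 2, so the groups overlapped (1.61 in WT, 0.44 in cKO-labelled samples, interaction P of 0.0149 unadjusted). *Pdpn*, a membrane protein of migrating epithelium, ranged from 0.232 to 4.91 CPM in unwounded and from 4.10 to 50.4 CPM in wounded libraries (log2 fold change 3.27). The bundling protein gene *Fscn1* had a value of 0.94, *Actn1* 0.54, *Cnn3* 1.27 and the tropomyosin genes *Tpm1*, *Tpm2* and *Tpm4* 0.50, 0.43 and 0.44. *Actg1*, the most abundant member, was at 0.08. With the cKO-labelled unwounded library left out, 12 genes of the group were higher and the median was 0.19.

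Of 36 tested junction genes, 5 were higher and 4 lower (median -0.02), so the group held no common direction. The higher ones were *Gjb2*, the related connexin genes *Gjb6* (1.95) and *Gja1* (0.52), the desmosomal cadherin gene *Dsc2* (0.84) and *F11r* (0.35), an adhesion molecule of tight junctions. *Gjb6* was at 4.05, 5.27 and 2.86 CPM in unwounded and 10.1, 27.5, 8.52 and 11.9 CPM in wounded libraries, without overlap. The connexin gene *Gjb5* (-0.72) was lower, as were *Cldn8* (-0.91) and *Cdh13* (-0.38). *Cdh1*, which encodes E-cadherin, was at 0.02, and *Dsp*, for desmoplakin, at 0.00. The counts were 3 and 2 without the cKO-labelled unwounded library (median 0.06) and 3 and 1 without cKO-labelled wounded 1, and the number lower was 2 without WT unwounded 1. The median was 0.00 without WT unwounded 1, 0.02 without cKO-labelled wounded 2, -0.04 without WT unwounded 2 and -0.05 without WT wounded 2.

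In TGF-beta signalling, 5 of 35 genes were higher and 6 lower (median -0.08). Besides *Pmepa1*, the higher ones were *Acvrl1* (1.41), *Bmpr1b* (1.69), *Ltbp1* (0.42) and *Skil* (0.30), which encode receptors, a binding protein and a feedback regulator. *Acvrl1* had opposite signs in WT (2.55) and cKO-labelled samples (-0.36), and *Bmpr1b* was at 3.68 and 0.28, so neither value describes both genotypes. *Id2* (-1.07) and *Id1* (-0.51), targets of BMP signalling, were lower with *Ltbp2*, *Fst* (-0.65), *Nog* (-1.07) and *Bmp7* (-0.35). *Tgfbi*, a secreted target and the most abundant member, was at 0.24, and at 0.58 with an unadjusted P of 0.0066 without the cKO-labelled unwounded library. *Id2* was at 24.1, 18.8 and 42.5 CPM in unwounded and 20.5, 10.6, 9.92 and 12.3 CPM in wounded libraries, highest in the cKO-labelled unwounded library and overlapping through WT wounded 1. Without that unwounded library the group had 6 higher, 2 lower and a median of 0.05, and the value of *Id2* was -0.44. The number higher was 2 without WT unwounded 1 and 1 without WT unwounded 2 or WT wounded 2. The median was -0.03 without WT unwounded 1 and -0.05 without either cKO-labelled wounded library.

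The EGF family had 1 higher and 4 lower of 20 tested (median -0.08). *Nrg1*, a ligand of ERBB receptors, was at 7.32, 5.45 and 3.25 CPM in unwounded and 15.5, 20.8, 11 and 5.02 CPM in wounded libraries, overlapping through cKO-labelled wounded 2 (log2 fold change 1.46). The receptor inhibitor genes *Lrig1* (-0.48) and *Lrig3* (-0.56) and the ligand genes *Nrg4* (-1.04) and *Btc* (-1.55) were lower. The count of lower genes was 1 without the cKO-labelled unwounded library (median 0.03) and 2 without WT unwounded 2, and the number higher was 2 without WT unwounded 1. The median was -0.15 without WT wounded 1, -0.12 without WT unwounded 2 and -0.04 without cKO-labelled wounded 2. *Dusp6*, a feedback phosphatase and the most abundant member, was at -0.27.

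Of 36 listed interferon-stimulated genes 24 were tested, of which 8 were higher and 0 lower (median 0.45). These values are in part set by the filter, which *Oasl2* passed through the wounded libraries alone. *Gbp2*, a guanylate-binding protein, was at 14.1, 8.41 and 12.9 CPM in unwounded and 31.0, 43.7, 26 and 12.5 CPM in wounded libraries. Only cKO-labelled wounded 2 lay within the unwounded range, and the log2 fold change was 1.34 (unadjusted P of 0.00102). *Oasl2* (2.66) and *Isg15* (2.67) were low in every library, at most 4.58 and 3.22 CPM, and higher in all wounded ones. Higher genes numbered 4 without WT wounded 2, 5 without WT wounded 1 and 11 without the cKO-labelled unwounded library, where the median was 0.94, and the median was 0.75 without WT unwounded 1. *Ifit1* had 39 and 154 counts in WT wounded but 7 and 11 in cKO-labelled wounded libraries, and *Irf1*, the most abundant member, was at 0.18.

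Cytokines, chemokines and antimicrobial proteins had 7 higher and 1 lower of 34 tested (median 0.12, but 0.03 without cKO-labelled wounded 2 and 0.19 without WT unwounded 2). With *Il24*, the chemokine gene *Cxcl10* (1.24) was higher in all 4 wounded libraries, at 13.9, 11.6, 6.5 and 8.70 CPM against 4.51, 5.03 and 4.33 CPM. *Cxcl3* was at 2.31 with overlapping groups. *Socs3*, the feedback inhibitor and the most abundant member, was lower (-0.34). The count of higher genes was 2 without WT wounded 2, 4 without WT unwounded 1 or cKO-labelled wounded 2 and 6 without the cKO-labelled unwounded library. The number lower was 0 without WT unwounded 1 and 2 without WT wounded 2, cKO-labelled unwounded or cKO-labelled wounded 1.

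For differentiation, 3 of 37 tested genes were higher and 7 lower. The median was -0.13, but 0.04 without WT unwounded 1, -0.21 without WT unwounded 2 and -0.22 without WT wounded 1. *Krt10* (-0.46) and *Krt1* (-0.49), the suprabasal keratin pair, had overlapping groups. *Sbsn*, a secreted protein of the upper epidermis, was at 328, 335 and 425 CPM in unwounded and 253, 258, 274 and 283 CPM in wounded libraries, with no overlap (log2 fold change -0.47, unadjusted P of 0.00111). *Psapl1* (-0.61), *Tgm5* (-0.65), *Klk5* (-0.70) and *Krt77* (-0.46) were lower. The cornified envelope genes *Sprr2h* (1.94), *Sprr1b* (1.02) and *Lor* (1.47) were higher, and without WT unwounded 2 the number higher was 7. Without the cKO-labelled unwounded library 2 were higher and 7 lower.

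Basal keratinocyte genes had 0 higher and 3 lower of 13 (median -0.04). *Krt15*, a basal and bulge keratin, was at 2917, 2737 and 4951 CPM in unwounded and 2214, 2057, 2414 and 2541 CPM in wounded libraries, below in each case (log2 fold change -0.65), and at -0.40 without the cKO-labelled unwounded library. *Ccnd2* (-0.69) and *Sox9* (-0.37) overlapped between groups. *Krt14*, the defining keratin of the sorted cells, was at 0.22 with an unadjusted P of 0.291. The number lower was 1 without WT wounded 2, the cKO-labelled unwounded library or either cKO-labelled wounded library, the median was 0.11 without the cKO-labelled unwounded library, and 3 were higher without WT wounded 1. The median was also 0.02 without cKO-labelled wounded 2, -0.08 without cKO-labelled wounded 1 and -0.16 without WT unwounded 2 or WT wounded 2.

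Of 21 tested hair follicle and sebaceous gland genes 8 were lower and 0 higher, with a median of -0.37, and 6 had a log2 fold change above 0. The median was -0.62 without WT wounded 1 and -0.21 without WT wounded 2. *Lhx2*, a bulge transcription factor, was at 86.4, 74.1 and 68.7 CPM in unwounded and 55.1, 32.4, 32.6 and 39.0 CPM in wounded libraries. *Cd34*, a surface protein of bulge cells, was at 35.3, 52.8 and 66.0 CPM and then 28.2, 24.6, 27.7 and 20.1 CPM. Neither gene overlapped between groups, and the log2 fold changes were -0.90 and -1.04 (adjusted p = 0.0908 for both by edgeR). The stem cell genes *Lgr5* (-0.75), *Lgr6* (-0.47), *Nfatc1* (-0.62) and *Lrig1* (-0.48) and the sebaceous gland genes *Gata6* (-0.54) and *Pparg* (-0.66) made up the rest, and the most abundant member, the follicle keratin gene *Krt79*, was at -0.23. Fewer follicle cells in a sample and less RNA per cell cannot be told apart in bulk RNA. Lower genes numbered 4 without the cKO-labelled unwounded library (median -0.26) and 5 without WT wounded 2, and the number higher was 1 without WT unwounded 2.

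All 30 tested genes of the hypoxia response and glycolysis had a log2 fold change above 0 (median 0.46), with 10 higher and 0 lower. *Ndrg1*, a stress-responsive gene, was at 229, 204 and 255 CPM in unwounded and 350, 394, 430 and 282 CPM in wounded libraries, without overlap (log2 fold change 0.66). For *Vegfa*, the endothelial growth factor gene, the cKO-labelled unwounded library was lowest at 45.9 CPM, the WT unwounded ones were at 109 and 131 CPM, and the wounded ones were at 132, 169, 142 and 116 CPM. The lactate exporter gene *Slc16a3* (1.59), the glucose transporter gene *Slc2a1* (0.65), *Bnip3* (0.83), *Ddit4* (0.75) and *Hif1a* (0.33) were also higher, and *Pkm*, the most abundant glycolytic member, was at 0.42, and at 0.10 without the cKO-labelled unwounded library. Leaving out the cKO-labelled unwounded library, 2 genes were higher and the median was 0.31, and *Hk1* (-0.07) and *Pfkp* (-0.11) were below 0. The summed CPM was 5021, 6247 and 3759 in unwounded and 5190, 7575, 7511 and 5294 in wounded libraries, lowest in that library. The difference between genotypes had an unadjusted P under 0.05 by edgeR for 7 of the 30, against 6.83% of all genes tested. The number of higher genes was 3 without WT wounded 2, 6 without WT unwounded 1 or cKO-labelled wounded 1, 17 without WT unwounded 2 and 18 without WT wounded 1.

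For the immediate-early and the cell cycle genes the cKO-labelled unwounded library lay away from the WT unwounded ones. Genotype, sex and library cannot be told apart there, since that group is 1 library. Of 22 immediate-early and stress transcription factors, 0 were higher and 3 lower, 21 had a log2 fold change below 0 and the median was -0.14, with 0.13 in WT and -0.56 in cKO-labelled samples. *Jun* was at 2195 and 1825 CPM in WT unwounded and 3936 CPM in the cKO-labelled unwounded library, which was above every wounded library (at most 2727 CPM). *Fosb* (-0.39), *Klf4* (-0.34) and *Ier3* (-0.46) were the lower members. Of all genes tested, 839 (6.83%) had an unadjusted P under 0.05 for a difference in wound response between genotypes, and 12 of the 22 here, a difference that rests on the cKO-labelled unwounded library. With the cKO-labelled unwounded library left out, the median was 0.14 and 0 genes were lower. It was -0.33 without WT unwounded 2, -0.28 without WT wounded 1 and -0.05 without cKO-labelled wounded 2, where 1 gene was higher. The count of lower genes was 0 without WT unwounded 1 or cKO-labelled wounded 2, 1 without WT wounded 2 or cKO-labelled wounded 1, 6 without WT wounded 1 and 9 without WT unwounded 2.

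Among 40 cell cycle and DNA replication genes 0 passed in either direction, with a median of 0.11, of -0.15 in WT and of 0.71 in cKO-labelled samples. The difference between genotypes had an unadjusted P under 0.05 for 17 of the 40, against 6.83% of all genes tested, and rests on the cKO-labelled unwounded library. *Mki67*, a marker of dividing cells, was at 1117 and 1575 CPM in WT unwounded, 1162 and 1253 CPM in WT wounded, 506 CPM in cKO-labelled unwounded and 1072 and 866 CPM in cKO-labelled wounded libraries. The cKO-labelled unwounded library was the lowest of all, and without it the median of the group was -0.14 and 1 gene was lower, *Cdk1* (-0.56, unadjusted P of 0.0391, looked up after the count was seen). The median was 0.42 without WT unwounded 2, 0.28 without WT wounded 1, 0.17 without WT wounded 2, 0.06 without WT unwounded 1 and -0.02 without cKO-labelled wounded 1. The number higher was 10 without WT unwounded 2, 3 without WT wounded 1 and 1 without cKO-labelled wounded 2.

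Lipid synthesis and barrier genes had 1 higher and 3 lower of 32 tested (median -0.16), with *Scd2* (0.93), a fatty acid desaturase, higher and *Elovl3* (-0.80), *Sptlc3* (-0.42) and *Smpd1* (-0.68) lower. *Scd1*, the most abundant member, was at -0.11. The number lower was 1 without WT unwounded 1, and the median was -0.10 without WT unwounded 2. The list of Grainyhead-like factors and genes the study names had 5 higher and 0 lower of 11 (median 0.37, and 0.67 without the cKO-labelled unwounded library). Some of its genes were picked by the study from these very samples, so it is not independent evidence. *Fscn1*, *Pdpn*, *Nrg1*, *Flt1* and *Tmsb10* (0.67) were its higher members, and *Grhl3* itself was at 0.19 with an unadjusted P of 0.308.

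**Figure D2:**
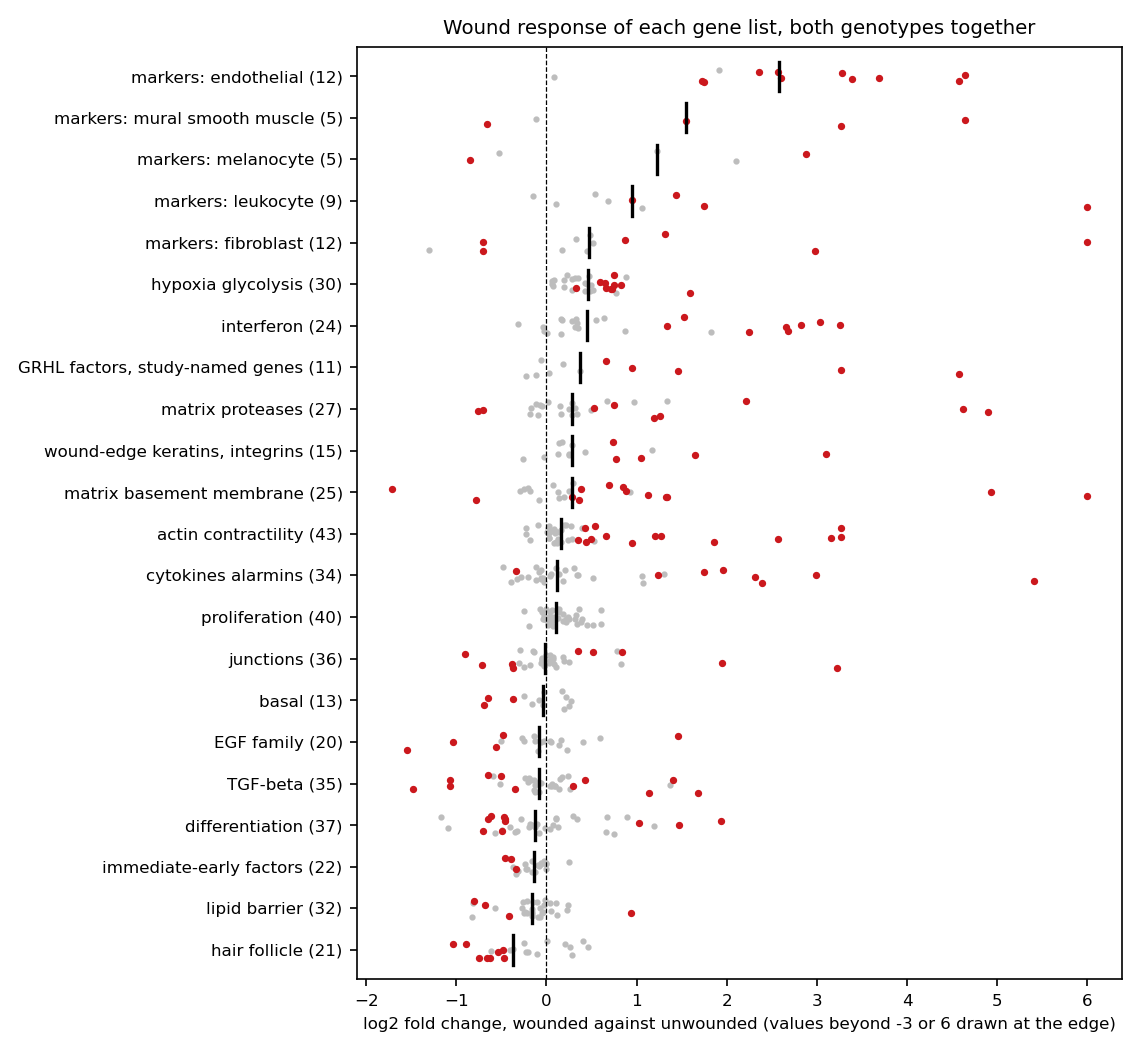
log2 fold change for wounding of every tested gene in each list with at least 5 tested genes, where each dot is a gene, red dots have an unadjusted P under 0.05 and the black bar is the median of the list. The tested genes have a median of 2.59 in the endothelial list and of -0.37 in the hair follicle list. Genes can pass the filter through the wounded libraries alone, so the medians are not ranked.

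Among markers of other cells, only the endothelial list had a higher summed CPM in every wounded than in every unwounded library. Of 17 endothelial genes 12 were tested, of which 10 were higher and 0 lower, with a median of 2.59 and 6 without overlap between groups. The filter keeps genes with enough counts in the wounded libraries alone, as was so for *Flt1* and *Kdr*. Counts and medians over the tested members of the marker lists are therefore in part set by the filter. The summed CPM of all 17 was 8.89 and 10.2 in WT unwounded and 4.72 in cKO-labelled unwounded, against 51.6 and 30.5 in WT wounded and 22.2 and 31.8 in cKO-labelled wounded libraries. All 4 wounded sums were above all 3 unwounded sums. *Vwf*, the most abundant of them, had 30, 36 and 1 counts in unwounded and 76, 62, 42 and 110 counts in wounded libraries. *Cdh5*, for the endothelial cadherin, had 1, 13 and 0 counts and then 107, 44, 12 and 53 counts, and *Kdr*, a growth factor receptor gene, 4, 0 and 0 and then 76, 5, 36 and 22 counts. *Pecam1*, which encodes the CD31 removed in the sort, had a log2 fold change of 2.57, and *Sox17* had 0 counts in every library. Without WT wounded 1, 5 genes were higher, without WT unwounded 1 the median was 1.97, and without the cKO-labelled unwounded library 9, with a median of 2.84. *Flt1* is in this list, and the part of endothelial RNA in its rise was not tested.

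Pericyte and smooth muscle genes had 3 higher and 1 lower of 5 tested of 12 (median 1.55, but 0.54 without WT wounded 2, 0.63 without cKO-labelled wounded 1 and 0.82 without cKO-labelled wounded 2). *Acta2*, for smooth muscle actin, was at 0.588, 2.31 and 0.0773 CPM in unwounded and 16.7, 10.2, 0.769 and 4.52 CPM in wounded libraries, with cKO-labelled wounded 1 among the unwounded values. *Mcam* (1.55) and *Des* (a ratio of 37.6 on 2 counts in the unwounded group, 95% counting interval 10.1 to 315) were higher, and *Cspg4* (-0.66) was lower. Lower genes numbered 0 without the cKO-labelled unwounded library. The summed CPM was 243, 235 and 307 in unwounded and 250, 223, 222 and 178 in wounded libraries. *Notch3*, the most abundant gene, was at -0.12, and *Abcc9* and *Higd1b* had 0 counts in every library.

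Fibroblast genes had 4 higher and 2 lower of 12 tested of 16 (median 0.47, but 0.31 without WT wounded 2 and 0.07 without the cKO-labelled unwounded library, where 0 were lower). *Sparcl1*, a matrix protein of stroma, had 0 counts in all unwounded and 59, 30, 29 and 9 in wounded libraries, at least 31.8-fold higher. *Dcn* (2.97), *Col1a2* (0.87) and *Col3a1* (1.32) were higher, *Col6a1* and *Col6a2* lower (both -0.70), and the most abundant gene, *Sparc*, was at 0.17, and at 0.63 with an unadjusted P of 0.024 without the cKO-labelled unwounded library. Higher genes numbered 1 without WT wounded 2 and 2 without cKO-labelled wounded 1, and the number lower 1 without WT unwounded 1 or cKO-labelled wounded 1. The summed CPM was 156, 172 and 166 in unwounded and 156, 224, 185 and 185 in wounded libraries.

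Leukocyte genes had 4 higher and 0 lower of 9 tested of 22 listed (median 0.95, and 0.41 without WT wounded 2). *Lyz2*, the lysozyme of macrophages and neutrophils, was at 0 without a wound and had counts of 16, 37, 9 and 40 with one, at least 25.6-fold higher. *H2-Aa* (1.43), *S100a8* (1.75) and *Cd74* (0.95) were the other higher ones. *Ptprc*, which encodes the CD45 removed in the sort, had 9 counts in WT unwounded 2, 11 in cKO-labelled wounded 1 and 0 elsewhere, and *Cd3e*, *Tyrobp*, *Fcer1g* and *Retnlg* were at 0 in every library. *Epcam*, the most abundant gene of the list, is also made by keratinocytes and was at -0.15. The summed CPM was 469, 336 and 275 in unwounded and 434, 360, 241 and 296 in wounded libraries. The count of higher genes was 0 without WT wounded 2 or cKO-labelled wounded 2, 1 without the cKO-labelled unwounded library and 2 without WT unwounded 1 or cKO-labelled wounded 1.

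Melanocyte genes had 1 higher and 1 lower of 5 tested of 8. Their summed CPM was lower in every wounded library, at 38.4, 27.3, 36.0 and 32.6 against 41.6, 39.2 and 61.8, with *Mitf* the most abundant. *Dct*, a melanin synthesis enzyme, had 12, 4 and 6 counts in unwounded and 79, 37, 61 and 40 counts in wounded libraries, without overlap (log2 fold change 2.88), while *Mitf* was lower (-0.85) and *Pmel* was at 1.22 with an unadjusted P of 0.157. The number higher was 2 without WT unwounded 1, the cKO-labelled unwounded library or cKO-labelled wounded 1. None of 7 erythroid genes was tested, and the globin gene *Hbb-bs* had 0 counts in every library. Of 12 skeletal muscle genes 3 were tested and 0 passed, with *Ttn* the most abundant, but 1 was lower without the cKO-labelled unwounded library and 1 higher without cKO-labelled wounded 1. Of 8 Merkel and Schwann cell genes only *Mbp* was tested (-0.33, and -0.45 with an unadjusted P under 0.05 without WT unwounded 2), with *Krt20* at 0 throughout. The part of RNA from these other cells in the common wound response was not tested.

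**Figure D3:**
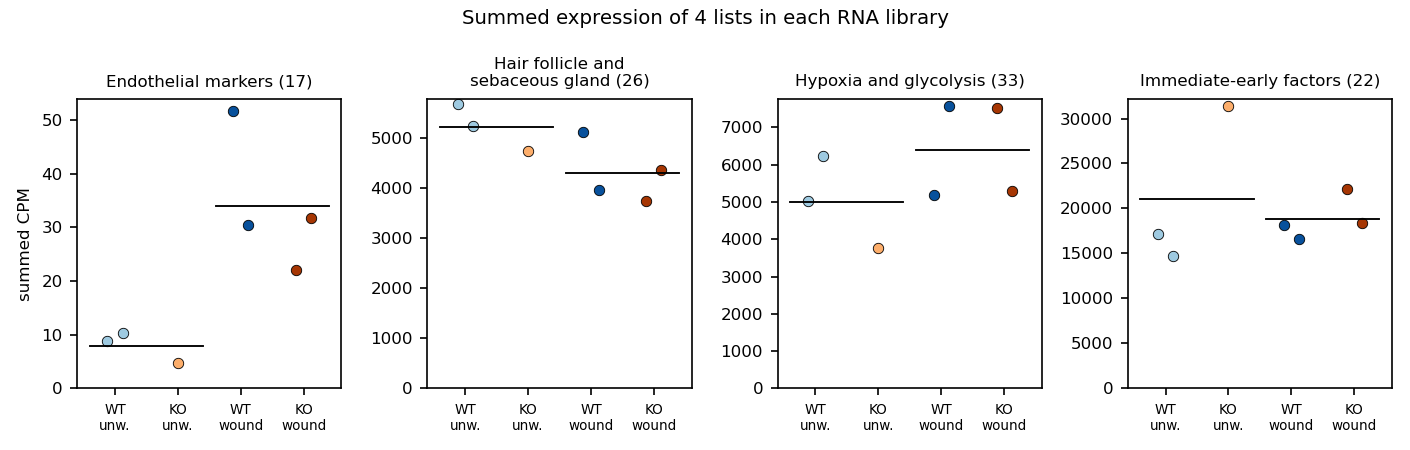
Summed CPM per library of the endothelial, the hair follicle and sebaceous gland, the hypoxia and glycolysis and the immediate-early lists, with lines at the means of the unwounded and wounded libraries. The endothelial sum lies between 4.72 and 10.2 in unwounded and between 22.2 and 51.6 in wounded libraries.

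Many of these genes lost an unadjusted P under 0.05 when the cKO-labelled unwounded library was left out, and most of their values came closer to 0. These were *Timp2* (-0.44), *Plau* (0.45), *Fscn1* (0.67), *Id1* (-0.30), *Id2* (-0.44), *Lrig1* (-0.33), *Lrig3* (-0.30), *Nrg4* (-0.89), *Socs3* (-0.24), *Gja1* (0.39), *Nfatc1* (-0.31), *Ccnd2* (-0.14) and *Sox9* (-0.17). So were *Ier3* (-0.26), *Klf4* (-0.12), *Fosb* (-0.05), *Vegfa* (0.33), *Ddit4* (0.59), *Elovl3* (-0.64), *Sptlc3* (-0.28) and *Smpd1* (-0.59). Among markers of other cells these were *Vwf* (1.10), *Cspg4* (-0.29), *Des*, *Col6a1* (-0.40), *Col6a2* (-0.39), *Col3a1* (0.67), *H2-Aa* (1.72), *S100a8* (1.58) and *Cd74* (1.12). Further ones were the protease, matrix, actin and junction genes *Plaur* (0.91), *Mmp2* (-0.29), *Lamc1* (0.33), *Tnc* (0.64), *Fn1* (0.69), *Hspg2* (0.23), *Ecm1* (-0.15), *Tpm2* (0.24), *Dsc2* (0.62), *Cldn8* (-0.54) and *Cdh13* (-0.16). The rest were *Fst* (-0.30), *Nog* (-0.89), *Klk5* (-0.77), *Krt77* (-0.09), *Sprr1b* (0.62), *Lor* (1.12), *Lgr5* (-0.27), *Lgr6* (-0.32), *Gata6* (-0.25), *Pparg* (-0.32), *Slc2a1* (0.40), *Bnip3* (0.62) and *Hif1a* (0.35). The values of *H2-Aa*, *Cd74*, *Lamc1*, *Klk5* and *Hif1a* did not come closer to 0.

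A gap of at least 2-fold (log2 CPM with a prior count of 2) between all wounded and all unwounded libraries was found for 28 genes above and 9 below. The genes named from this count were chosen after their values were seen. *Sema6d*, a membrane semaphorin, had 3, 0 and 0 counts in unwounded and 60, 101, 45 and 46 counts in wounded libraries. *Flt4*, a growth factor receptor gene of lymphatic endothelium, had 0 counts in unwounded and 39, 7, 54 and 35 in wounded libraries, at least 33.9-fold higher, and *Pgf*, a ligand of FLT1, had 0 and then 15, 28, 19 and 6 counts, at least 17.1-fold higher. Among the genes below, *Dlk1*, a membrane ligand related to the Notch ligands, had 17, 40 and 34 counts in unwounded and 2, 0, 1 and 0 counts in wounded libraries. *Hsd17b11*, a steroid dehydrogenase gene, had 95, 96 and 94 counts and then 32, 15, 28 and 21 counts.

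Of the 511 higher and 460 lower genes at an unadjusted P under 0.05, 221 and 235 did not overlap between wounded and unwounded libraries, and 504 and 451 had the same sign when WT and cKO-labelled samples were fitted apart. The fit draws on both genotypes, so a shared sign is in part fixed by the choice. The median log2 fold change was 0.99 for the higher and -0.61 for the lower genes, and 252 and 116 were at least 2-fold. A difference in wound response between genotypes had an unadjusted P under 0.05 for 104 of the 971. Among all 12286 genes tested it had one for 839 (6.83%). An adjusted p under 0.05 for this difference was found for 3 of 12286 genes (0.0244%) by edgeR. The 3 genes were *Akr1c18*, *Pisd-ps3* and *Lcn2*, none of which had an adjusted p under 0.05 for wounding itself. The number of such genes was 14 without WT unwounded 1, 6 without WT wounded 1 and 30 without WT wounded 2.

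Several genes named above had an unadjusted P under 0.05 for that difference, so their single value describes the genotypes unevenly. Given as WT and then cKO-labelled, they were *Timp2* (-0.45 and -1.22), *Tnc* (0.63 and 2.08), *Id2* (-0.44 and -1.94), *Fst* (-0.31 and -1.13), *Lrig3* (-0.31 and -0.92), *Psapl1* (-0.92 and -0.12) and *Krt77* (-0.09 and -0.99). *Ccnd2* (-0.15 and -1.44), *Lgr5* (-0.28 and -1.41), *Nfatc1* (-0.32 and -1.06), *Vegfa* (0.32 and 1.49), *Pkm* (0.09 and 0.96), *Fosb* (-0.05 and -0.87), *Scd2* (0.48 and 1.97) and *Cspg4* (-0.30 and -1.20) had it as well. The signs were opposite for *Tgfbi* (0.57 and -0.24), *Sparc* (0.62 and -0.47), *Jun* (0.24 and -0.54) and *Mki67* (-0.16 and 0.94). *Vim*, *Krt15*, *Krt6b*, *Ecm1*, *Cald1*, *Acvrl1*, *Bmpr1b*, *Mmp9* and *Col3a1* also belong here. Each cKO-labelled value rests on the 1 unwounded library of that group.

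Open chromatin was available as 1 list of regions per condition, with the fold enrichment over local background that the authors deposited. The lists differ in length, with 10769 regions for WT unwounded, 36872 for WT wounded, 29364 for cKO-labelled unwounded and 22474 for cKO-labelled wounded keratinocytes. A region lay within 1000 bases of a start for 43.2%, 75.7%, 71.7% and 60.6% of 11856 tested genes, in that order. Of the genes higher after wounding the shares were 30.2%, 62.9%, 56.9% and 49.2%, and of those lower 32.2%, 67.2%, 65.0% and 53.7%. Both groups were below all genes in all 4 lists. At the start of *Gjb2* a region was listed for WT wounded (3.73-fold enriched) and cKO-labelled unwounded keratinocytes (3.61-fold) and in neither of the other lists. *Tmtc1* and *Pmepa1* had one in every list but that of WT unwounded, *Flt1* only in that of cKO-labelled wounded (3.52-fold) and *Col8a2* in none.

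The sequences upstream of *Gjb2* and *Tmtc1* are shown because these called genes have listed regions from more than 1 list in the promoter. *Pmepa1* has such regions too, but no promoter sequence was available for it. They are the 250 bases before the RefSeq start on the minus strand of GRCm38.p6 (mm10), at chr14:57104703-57104952 for *Gjb2* and chr6:148444353-148444602 for *Tmtc1*. Capitals mark the bases inside the regions of both the WT wounded and the cKO-labelled unwounded list, which are 147 bases of *Gjb2* and all 250 of *Tmtc1*.
Gjb2: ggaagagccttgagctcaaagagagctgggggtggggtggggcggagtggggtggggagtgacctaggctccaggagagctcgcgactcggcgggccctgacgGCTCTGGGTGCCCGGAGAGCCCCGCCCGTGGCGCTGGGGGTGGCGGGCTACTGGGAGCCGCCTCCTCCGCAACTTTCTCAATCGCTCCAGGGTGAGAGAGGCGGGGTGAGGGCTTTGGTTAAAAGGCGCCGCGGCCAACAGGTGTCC
Tmtc1: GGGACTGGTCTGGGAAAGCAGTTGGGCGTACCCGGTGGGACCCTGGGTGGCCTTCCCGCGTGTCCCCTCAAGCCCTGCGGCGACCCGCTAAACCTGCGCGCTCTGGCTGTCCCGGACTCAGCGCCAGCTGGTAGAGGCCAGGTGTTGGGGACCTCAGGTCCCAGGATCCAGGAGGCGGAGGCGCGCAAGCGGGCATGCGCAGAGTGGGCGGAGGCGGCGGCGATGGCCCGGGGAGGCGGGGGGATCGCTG

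Promoters from 250 bases before to 50 after the start were searched on both strands for TGANTCA, the AP-1 motif, AACCGGTT, the GRHL motif, and GGAATG, the TEAD motif. They held them in 7.81%, 0.146% and 14.7% of all 32851 RefSeq promoters. A promoter could be matched for 9767 of the 12286 tested genes, under 80%, so a comparison of gene groups is void and none is given. Of the 5 called genes 4 had a promoter and none of these held a motif. Among the genes just outside the adjusted threshold, *Serpinb11* held 2 matches to TGANTCA on the plus strand, in chr1:107362093-107362179 and chr1:107362198-107362284, and these stretches are shown with the match in capitals. *Nav1* held GGAATG, read on the other strand, in chr1:135585367-135585452 of the minus strand, and *Shisa2* held it in chr14:59625031-59625090 of the plus strand (GRCm38.p6).
Serpinb11 first: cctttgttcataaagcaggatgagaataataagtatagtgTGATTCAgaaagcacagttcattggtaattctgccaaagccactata
Serpinb11 second: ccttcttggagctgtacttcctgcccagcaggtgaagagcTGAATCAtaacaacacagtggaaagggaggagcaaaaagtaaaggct
Nav1: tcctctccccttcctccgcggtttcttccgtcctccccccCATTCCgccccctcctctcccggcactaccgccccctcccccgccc
Shisa2: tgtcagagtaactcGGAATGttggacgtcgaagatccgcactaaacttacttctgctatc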

How the data were processed

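RNA of sorted keratinocytes was sequenced by the authors, who deposited whole-number counts per gene symbol without normalization. FastQC and kallisto are named by the submitters' processing notes, and kallisto 0.46.2 by the authors' methods. The tables end in tallies of uncounted reads, which kallisto does not write, so which program made the deposited counts is not clear. Tallies of ambiguous reads (1.34% to 1.45% per library) and of reads without a unique alignment (3.46% to 4.75%) were left out. Chromosomes were taken from GENCODE vM21 and RefSeq GRCm38.p6 (mm10); 86 symbols had no match and were kept, and 1116 genes on X or Y were left out before library sizes were computed.

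Genes were kept by edgeR's filterByExpr on treatment, scaled by TMM, which corrects for composition, and tested by quasi-likelihood in edgeR with genotype and treatment terms. The biological coefficient of variation was 28.9%. CPM use the TMM-scaled library size. Replicates differed beyond counting noise (chi-square over its degrees of freedom 29.6 for the WT unwounded pair, 40.4 for the WT wounded pair and 35.3 for the cKO-labelled wounded pair). Within-genotype changes and their difference came from a fit of the 4 groups, where the lone cKO-labelled unwounded library is assumed to vary like the others. For a group with a count of 0 in every library, 3 counts over the group were used as a floor, which covers counting error only.

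For ATAC-seq the authors deposited broad regions called by MACS2 for each condition, with a fold enrichment, and also a −log10 p-value, a −log10 q-value and a score that were not used. Each is a single sample into which the authors pooled material of more than 1 mouse.

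Members and gene lists were chosen with earlier results of these data known. Named genes were those with an adjusted p under 0.05, filled up to 24 by the smallest P among genes with the same sign in both genotypes, no overlap between treatments and a mean log2 CPM of at least 1; then from each list the up to 4 members with the smallest unadjusted P under 0.05 and the most abundant one, the first gene of each marker list, and *Grhl3*, *Fscn1*, *Pdpn*, *Cdh1*, *Krt6a*, *Krt6b*, *Krt16*, *Krt17*, *Itga5* and *Mmp9*. Further list members with an unadjusted P under 0.05, defining markers at 0, *Xist*, the Y genes and genes named from the 2-fold gap or from the difference between genotypes were named after their values were seen. Predicted genes count in totals.

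Alternatives were RLE or no composition scaling, DESeq2, edgeR's likelihood ratio, older and robust tests, limma-voom, other filters, no genotype term, the mean of both genotypes' responses, replicate blocks, thinning, chromosomes X and Y kept, predicted genes left out, each library left out and a 5000-base window for regions. Each step was tested on simulated data. Tests used edgeR 4.0.16, DESeq2 1.42.0 and limma 3.58.1 in R 4.3.3. Other steps ran in Python 3.11.15 with pandas 2.3.3 and numpy 2.4.6, and plots with matplotlib 3.10.9.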

Additional observations from a re-analysis of the deposited data

Results flagged for a closer look

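Among the 4 wounded libraries, a single library stood apart from the other 3 for 4 of 116 named genes looked at, where chance gives about 5%, or 5.8 genes. *Phyhip* was at 53.7 CPM in cKO-labelled wounded 1, below 72.7 to 75.9 CPM in the others. *Jun* was at 2112 CPM in WT wounded 2, below 2636 to 2727 CPM. *Sox9* was at 676 CPM in WT wounded 1, above 450 to 468 CPM, and *Cdh1* at 1493 CPM in the same library, above 1131 to 1159 CPM.

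The wound response of 3 genes differed between genotypes with an adjusted p under 0.05 (interaction term, quasi-likelihood in edgeR), and all were named after their values were seen. *Akr1c18*, a steroid dehydrogenase gene, had 232 and 233 counts in WT unwounded, 203 and 95 in WT wounded, 4266 in cKO-labelled unwounded and 19 and 125 in cKO-labelled wounded libraries. Its log2 fold change was lower in cKO-labelled samples, with a difference of -5.40 (adjusted p = 0.00852). *Pisd-ps3*, a pseudogene whose reads can be shared with its parent gene, had 753, 886, 783 and 950 counts in WT libraries, 0 in cKO-labelled unwounded and 651 and 1216 in cKO-labelled wounded ones. The fitted difference of 12.83 rests on the count of 0 and is no bound (adjusted p = 0.00852). *Lcn2*, an antimicrobial lipocalin, had 731, 1133, 446 and 526 counts in WT libraries, 67 in cKO-labelled unwounded and 536 and 549 in cKO-labelled wounded ones, a difference of 3.77 (adjusted p = 0.0115). In each of the 3 genes the cKO-labelled unwounded library stands apart from the other 6, and without it the difference cannot be fitted.

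Outside the genes tested, *Xist* had 14854 counts in the cKO-labelled unwounded library against 3 to 32 in the others.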

How the results depend on the processing

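The number of genes with an adjusted p under 0.05 depended on the method, with 3 higher and 2 lower in the test reported. It was 85 higher and 50 lower with DESeq2, 76 and 46 with edgeR's likelihood ratio test, 0 and 0 with the older quasi-likelihood method, 7 and 7 with the robust one and 0 and 2 with limma-voom. Without a filter it was 9 and 7, without the genotype term 0 and 2, and with the mean of both genotypes' responses 15 and 28. With limma-voom and without the genotype term the 2 genes were *Col8a2* and *Tmtc1*. With a replicate block by label it was 15 and 5, and with a replicate block by number 0 and 0. The block by label joins cKO-labelled unwounded and wounded 2, whose *Xist* counts are 14854 and 25 and of which only the second has Y counts, so this pairing is not supported. The deviations of libraries that share a number correlated at 0.213 between WT unwounded and WT wounded. With cKO-labelled wounded they correlated at -0.0499 for WT unwounded and -0.0689 for WT wounded, pairs that differ in genotype and cannot share an animal. Whether the WT pairs share an animal was not tested, and the test reported has no term for such pairs.

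With 1 library left out at a time, 0 to 60 genes were higher and 0 to 67 lower at an adjusted p under 0.05, and 271 to 608 were lower at an unadjusted P under 0.05. For the difference between genotypes, 96 genes passed by the likelihood ratio test, 80 by DESeq2 and 2 to 30 with a library left out. The cause was not tested.

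With a window of 5000 bases, open regions lay near 46.3% of all tested and 36.1% of higher genes for WT unwounded. For WT wounded they lay near 80.9% of all, 71.4% of higher and 76.0% of lower genes, for cKO-labelled unwounded near 77.1%, 63.9% and 72.7%, and for cKO-labelled wounded near 64.6%, 55.4% and 59.5%.

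Among the 116 named genes signs reversed for 10, whose log2 fold changes lay between -0.15 and 0.25. Members of the lists that are not among them also reversed from values outside this range when the cKO-labelled unwounded library was left out. *Dsp* was at 0.00255 with RLE and 0.00255 with DESeq2, 0.00112 with at least 10 counts in every library, 0.00813 without the genotype term, 0.0058 with a replicate block by number and 0.000366 without predicted genes. It was 0.0111 without WT unwounded 2, 0.0546 without WT wounded 1, 0.00248 without cKO-labelled unwounded and 0.0168 without cKO-labelled wounded 2, with a range of -0.0679 to 0.0546 over the leave-outs. *Cdh1* was at -0.00468 with the mean of both responses, -0.0152 with the block by number, -0.0986 without WT unwounded 2 and -0.104 without WT wounded 1 (-0.104 to 0.149 over the leave-outs). *Serpinb2* was at 0.0139 with the block by label and between -0.299 and 0.173 with a library left out, at 0.173 without WT unwounded 1, 0.00574 without WT wounded 2 and 0.0313 without cKO-labelled unwounded. *Epcam* was at 0.000914 without WT unwounded 1 (-0.313 to 0.000914) and *Actg1* at -0.00623 without WT wounded 1 (-0.00623 to 0.167). Without the cKO-labelled unwounded library *Col17a1* was at 0.136 (-0.219 to 0.136 over the leave-outs), *Jun* at 0.247 (-0.235 to 0.247), *Mki67* at -0.151 (-0.151 to 0.502), *Notch3* at 0.0119 (-0.231 to 0.0119) and *Grhl3* at -0.0127 (-0.0127 to 0.407).

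Leaving libraries other than the cKO-labelled unwounded one out of the list counts was chosen after seeing the data. Limits are the small groups and the lone cKO-labelled unwounded library, which is female by its *Xist* and Y counts while the others are male. Others are the sharing of animals between libraries, which is not stated, and RNA of other cell types in the sorted samples. The genotype is also taken from the label, which gene counts cannot check. A common response was judged by 1 model, and genes below its threshold are not shown to be unchanged.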
